A study of Mus musculus with 4 samples.

Results

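The trefoil factor genes Tff1, Tff2 and Tff3 and the gastrokine genes Gkn1, Gkn2 and Gkn3 were examined in the 4 RNA-seq libraries of a study of Tas2r143-reporter mice. They were found by gene symbol, and all 6 stood among the 48709 genes listed. The study used the reporter to purify cells with activity of the promoter of a bitter taste receptor gene cluster and to compare their RNA with that of other epithelial cells. In the stomach, 5 of the 6 genes were at least 4-fold lower in EGFP-positive than in Tomato-positive cells, beside 22.4% of all genes tested. The folds ran from 7.97 for Gkn2 to at least 67.4 for Tff3, whose 0 in EGFP-positive cells was set to 3 reads. Gkn3 differed by 1.48-fold, short of the 4-fold that counted as a difference here. In the trachea, Tff2 was the member with a level above a few reads, and it was also lower in EGFP-positive cells, by 7.5-fold, where 32.4% of all genes tested were lower.

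All 4 groups came from adult C57BL/6 mice that carried the transgene Tas2r143-CreERT2 and the reporter allele Rosa26flox-mT-stop-flox-mG, and all received tamoxifen on 5 days and were analysed 5 days after injections ended. CreERT2 was driven by the Tas2r143 promoter on a bacterial artificial chromosome transgene. Every cell of these mice makes Tomato until tamoxifen activates the recombinase, after which the recombined cells and their progeny make EGFP. In each tissue, live (DAPI-negative) cells were sorted for EGFP without another marker. The other sort took live cells that were positive for Tomato and EpCAM and negative for EGFP, so that only the Tomato sort was gated on EpCAM, a surface protein of epithelial cells. Cells were pooled from 3 mice into 1 library for each sort of the stomach and of the trachea. There were thus no replicates, no difference between groups could be tested, and no p-value is given.

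Trefoil factors are small secreted proteins held together by the disulfide bonds of their trefoil domains. They are released with mucins and are known for the protection and repair of mucosal surfaces. In the stomach, Tff1 is known as a product of the pit cells of the surface, Tff2 as a product of mucous neck cells, and Tff3 as a product of the goblet cells of the intestine. Gastrokines are secreted proteins of the gastric mucosa with a BRICHOS domain. Gkn1 and Gkn2 are known from pit cells, where Gkn2 can pair with Tff1, and Gkn3 is known from mucous neck cells.

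Each family is 1 cluster in the mouse genome (GRCm38, GENCODE annotation). On chromosome 17, all 3 trefoil factor genes lie on the minus strand within 40.0 kb, with Tff3 at chr17:31125306-31129646, Tff2 at chr17:31141049-31144282 and Tff1 at chr17:31161395-31165277. An antisense gene on the plus strand, Gm15318, shares 221 of the 703 exon bases of Tff1, which is 31.4%. The authors left out reads that overlapped several genes, and use of strand is not stated, so reads over the shared bases may or may not be part of the Tff1 value. Gm15318 itself was at 19 normalized counts in the EGFP and 165 in the Tomato library of the stomach. The gastrokine genes lie within 43.3 kb of chromosome 6, with Gkn1 at chr6:87345650-87350942 on the minus strand, Gkn2 at chr6:87373357-87379497 on the plus strand and Gkn3 at chr6:87383256-87388935 on the minus strand. Gkn1 and Gkn2 point away from each other with 22.4 kb between their starts, and the ends of Gkn2 and Gkn3 are 3.8 kb apart.

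**Figure D1:**
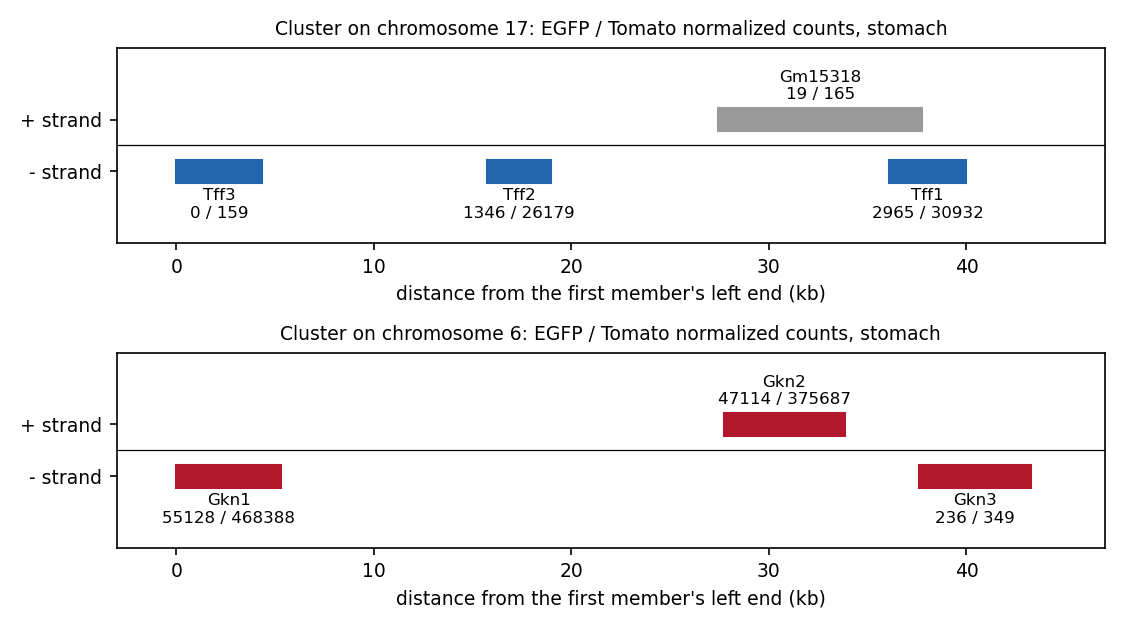
Map of both clusters, with the distance from the left end of the first member (kb) on the horizontal axis, strand on the vertical axis and, at each gene, the EGFP and Tomato values of the stomach in normalized counts. Per kb of exon, the neighbours Gkn2 and Gkn3 differ in level, with 59789 and 476760 beside 276 and 408.

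The 3 gastrokine genes are neighbours with unlike levels, so the 250 bases before the RefSeq start of each are shown ( GRCm38.p6, each read 5′ to 3′ on the strand of its gene). Promoter entries were matched for these 3 of the 6 members, and not for Tff1, Tff2 and Tff3. Capitals mark GATAA, the core letters of sites of GATA factors, and TATAAA, the letters of a TATA box, on either strand. Gkn1 is read from chr6:87350916-87351165 on the minus strand, Gkn2 from chr6:87373115-87373364 on the plus strand and Gkn3 from chr6:87388936-87389185 on the minus strand.
Gkn1: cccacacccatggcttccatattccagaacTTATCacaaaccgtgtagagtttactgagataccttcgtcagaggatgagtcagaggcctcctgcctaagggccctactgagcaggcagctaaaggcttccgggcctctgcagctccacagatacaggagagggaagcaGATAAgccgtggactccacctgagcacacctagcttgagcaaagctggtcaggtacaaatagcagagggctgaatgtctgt
Gkn2: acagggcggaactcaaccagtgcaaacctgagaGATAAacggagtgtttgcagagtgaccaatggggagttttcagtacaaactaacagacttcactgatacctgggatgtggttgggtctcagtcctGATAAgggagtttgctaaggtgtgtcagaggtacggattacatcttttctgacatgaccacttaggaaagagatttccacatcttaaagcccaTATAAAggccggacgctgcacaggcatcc
Gkn3: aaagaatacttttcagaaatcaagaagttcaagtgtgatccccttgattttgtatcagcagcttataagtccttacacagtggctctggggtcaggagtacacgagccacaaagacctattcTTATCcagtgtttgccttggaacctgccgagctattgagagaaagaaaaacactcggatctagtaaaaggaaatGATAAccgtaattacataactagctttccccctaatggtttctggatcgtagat
GATAA occurred 2 times before each of the 3 genes, and TATAAA occurred before Gkn2, 29 to 24 bases before its RefSeq start. RefSeq and GENCODE starts differ, and by the GENCODE bounds given above the windows reach 27 bases into Gkn1, 8 into Gkn2 and 0 into Gkn3. Of 32851 promoter windows of the same length, 22.6% held GATAA and 12.4% held TATAAA on either strand. These shares count windows with any match, and the share with 2 matches was not counted. GATAA and TATAAA matches did not overlap in these windows. GC content was 53.2% for Gkn1, 47.2% for Gkn2 and 40.8% for Gkn3, beside a median of 52.4% over all windows. These matches are descriptions of the letters and not evidence of a site in use.

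Values are the authors' normalized counts, read counts per gene divided by a factor for each library. The libraries held 9.98 to 15.43 M normalized counts (M, 1000000), or an estimated 6.2 to 18.9 M reads assigned to genes, with the lowest depth in the EGFP library of the trachea. There 1 read was worth 1.61 normalized counts, against 0.786 to 0.816 in the other 3 libraries. Sample titles and tissue fields name opposite tissues for all 4 samples, and the libraries are called here by their titles, which the data columns carry. By that naming, club cell markers summed to 99110 normalized counts per 1000000 of the library (CPM) in the Tomato library of the trachea and to 11.08 CPM in that of the stomach. Chief cell markers summed to 3604 and 203400, although 1 of them, the gastric lipase gene Lipf, was listed at 0 in both stomach libraries and at 53408 in the Tomato library of the trachea. Tuft cell markers summed to 9379 CPM in the EGFP and 530.9 in the Tomato library of the stomach, and to 8091 and 218.7 in the trachea. The EGFP library of the stomach stood apart by its immunoglobulin genes, which took 12.87% of its normalized counts and 0.02% to 0.55% in the other 3 libraries.

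A gene was called higher or lower here when the values of 2 libraries, each with 1 added, differed 4-fold or more and the higher value was 50 or more. Intervals are exact 95% intervals from the estimated reads. They cover the counting error of reads only, and they say nothing of the spread between mice or sorts. Because cDNA was amplified by PCR without molecular identifiers, reads are not independent molecules, and the intervals may be too narrow.

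Gkn1 and Gkn2 were measured at high levels in the stomach and Gkn3 at a low one. Gkn1 was at 55128 normalized counts in the EGFP and 468388 in the Tomato library of the stomach, and at 10 and 2 in the same libraries of the trachea. Gkn2 was at 47114 and 375687 in the stomach and at 5 and 1 in the trachea. Both genes were high in the 2 stomach libraries and at a few reads or fewer in the tracheal ones. Gkn3 was at 236 and 349 in the stomach and was listed at 0 in both tracheal libraries. Its stomach values were thus closer to each other than those of its neighbours.

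Among the trefoil factor genes, Tff2 was the one measured well above 0 in both tissues. Tff1 was at 2965 in the EGFP and 30932 in the Tomato library of the stomach, at 0 in the EGFP library and at 8 in the Tomato library of the trachea. Tff2 was at 1346 and 26179 in the stomach and at 369 and 2769 in the trachea, so that the Tomato library was the higher one in each tissue. Tff3 was at 159 in the Tomato library of the stomach and at 0 in the other 3 libraries. A count of 0 allows up to 3 reads, which is 2.36 normalized counts in the EGFP library of the stomach, 4.83 in the EGFP and 2.43 in the Tomato library of the trachea.

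**Figure D2:**
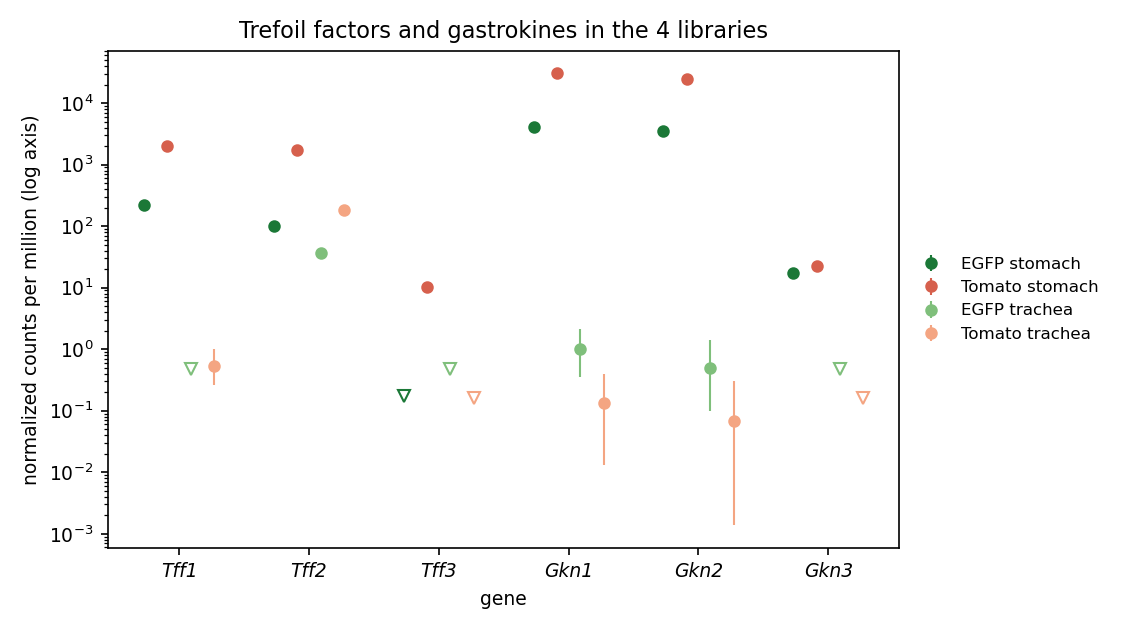
Level of each of the 6 genes in the 4 libraries, in normalized counts per 1000000 of the library (CPM) on a log axis, not corrected for gene length. Points are single libraries with exact 95% counting intervals, which are smaller than the points at high levels, and open triangles mark the limit of 3 reads for genes at 0; Tff2 is the gene with all 4 points above 10 CPM.

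Together the 6 genes took 5.843% of the normalized counts of the Tomato library of the stomach (95% interval 5.832% to 5.853%) and 0.7836% of the EGFP library (0.7795% to 0.7878%). In the trachea their share was 0.0187% of the Tomato library (0.01808% to 0.01933%) and 0.003848% of the EGFP library (0.003382% to 0.004377%). The gastrokines made up most of the share in the stomach, with 5.471% in the Tomato library and 0.752% in the EGFP library, against 0.3711% and 0.03163% for the trefoil factors. In the trachea the trefoil factors made up most of it, through Tff2. Gkn1 alone took 3.03% and Gkn2 2.43% of the Tomato library of the stomach.

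To compare the genes with each other, their normalized counts were divided by exon length, from 493 bases for Tff3 to 1250 for Gkn1. Per kb of exon in the Tomato library of the stomach, Gkn2 was at 476760, Gkn1 at 374710, Tff2 at 44827, Tff1 at 44000, Gkn3 at 408 and Tff3 at 323. Tff1 and Tff2 were thus neighbours with nearly equal levels per kb, and their order turned when Tff1 was given the shorter exon length of RefSeq, 486 bases. In the EGFP library of the stomach, Gkn2 was at 59789 per kb, Gkn1 at 44102, Tff1 at 4218, Tff2 at 2305 and Gkn3 at 276. The order was the same there except for Tff1 and Tff2, with Tff1 at 1.83 times Tff2 per kb in the EGFP library and 0.982 times in the Tomato library. The order of Gkn2 over Gkn1 rests on the length correction, since by counts per gene Gkn1 was the higher one. In the trachea, Tff2 was at 632 per kb in the EGFP and 4741 in the Tomato library.

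The EGFP library of the stomach had lower values than the Tomato library for all 6 genes. Of the 6, 5 were called lower and none was called higher. Over all genes at 50 or more, 2487 of 11094 were called lower, which is 22.4%, and 1639 were called higher. The median log2(EGFP/Tomato) was -3.23 over the 6 members and -0.152 over all genes tested. In these bulk samples, fewer cells of a type and less RNA per cell cannot be told apart.

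Among the gastrokines, Gkn1 was 8.5-fold lower in the EGFP library (interval 8.43 to 8.56) and Gkn2 was 7.97-fold lower (7.91 to 8.04). Their log2(EGFP/Tomato) of -3.09 and -3.0 differed by -0.09 (interval -0.11 to -0.07), a small difference with an interval that covers the counting of reads only. Gkn1 was at 0.738 times Gkn2 per kb in the EGFP library and 0.786 times in the Tomato library. Gkn3 was called neither, with a log2(EGFP/Tomato) of -0.56 and a value 1.48-fold lower in the EGFP library (1.27 to 1.72). Taken as Gkn1 minus Gkn3, the difference in log2(EGFP/Tomato) was -2.52 (interval -2.74 to -2.31), and as Gkn2 minus Gkn3 it was -2.43 (-2.64 to -2.22). These differences are larger than the counting error of the pairs, and the spread between mice is not known.

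Among the trefoil factors, Tff1 was 10.4-fold lower in the EGFP library of the stomach (10.1 to 10.8), with a log2(EGFP/Tomato) of -3.38. Tff2 was 19.4-fold lower (18.5 to 20.4), with a log2(EGFP/Tomato) of -4.28. The difference of 0.9 between the 2 genes had an interval of 0.81 to 0.98. Tff2 was thus lower in EGFP-positive cells by more than Tff1, beyond the counting error of reads. Tff3, listed at 0 in the EGFP library, was at least 67.4-fold lower, counted against the limit of 3 reads. By the exact interval, its ratio of the EGFP to the Tomato value was up to 0.0184, a weaker bound. The log2(EGFP/Tomato) of Tff1 differed from that of Gkn1 by -0.3 (-0.35 to -0.25), and from that of Gkn2 by -0.39 (-0.44 to -0.34), so that these 3 genes lay closer together than to Tff2 on one side and Gkn3 on the other.

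**Figure D3:**
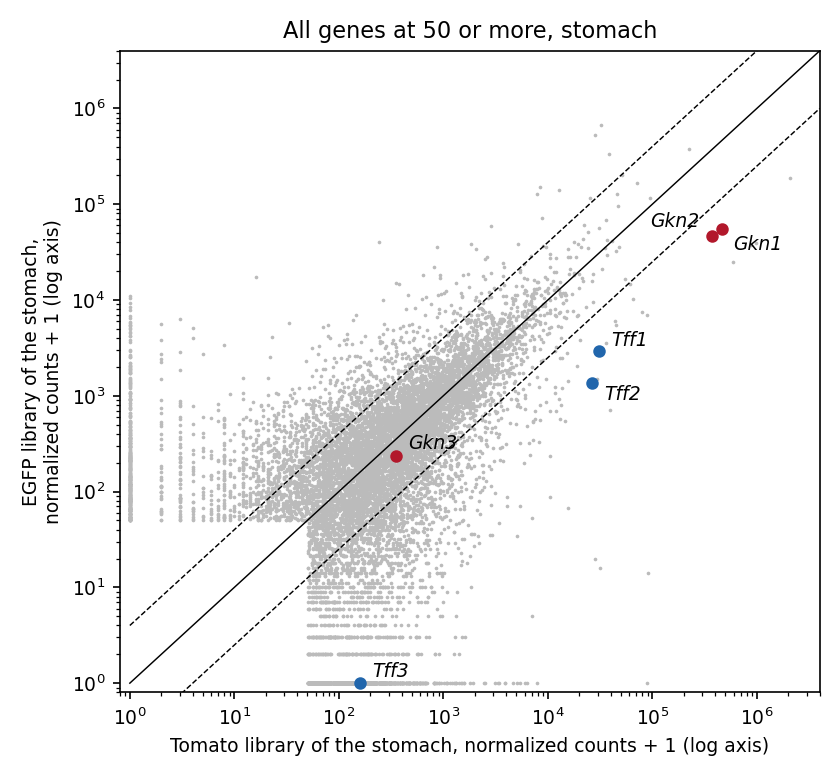
Normalized counts plus 1 of all genes at 50 or more in either stomach library, with the Tomato library on the horizontal and the EGFP library on the vertical axis, both log axes. The solid line marks equal values and dashed lines mark 4-fold; blue points are trefoil factors and red points gastrokines, and Gkn3 alone of the 6 lies between the dashed lines.

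Markers of several cell types also differed between the stomach sorts, some in the direction of these genes and some in the opposite one. Of all 11094 genes tested, 2487 were lower, which is 22.4%, and 1639 were higher. All 10 tuft cell markers were higher in the EGFP library, and all 6 markers of B and plasma cells were higher as well, with a sum of 102200 CPM against 4504 in the Tomato library. The lower genes included all 7 enteroendocrine, all 5 fibroblast and all 6 myeloid markers, with sums of 57.16, 18.64 and 6.091 CPM in the EGFP library against 17100, 1685 and 881.3 in the Tomato library. The part of these cells in the values of the 6 genes was not tested. The hormone precursor gene Chga was at 0 in the EGFP and 88713 in the Tomato library, and Ghrl, which encodes ghrelin, was at 13 and 90866. Other abundant transcripts of the Tomato library kept a part of their level, with Pgc at 39704 and 992416, Chia1 at 189673 and 2055085 and Psca at 7516 and 80436. The ratio of the EGFP to the Tomato value was 0.04, 0.0923 and 0.0934 for these 3 genes, beside 0.118 for Gkn1.

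The pit cell list, which here leaves out the 6 members, held genes of both directions. Of 12 of its 13 genes at 50 or more, 6 were lower, which is 50% beside 22.4% of all genes, while 3 were higher and 3 neither. The median log2(EGFP/Tomato) was -1.24 beside -0.152 over all genes. Psca, a surface protein of pit cells, was at 7516 in the EGFP and 80436 in the Tomato library, and Dpcr1 was at 3521 and 36177. Gcnt3, which encodes a mucin glycosyltransferase, was at 41814 and 36711 and was called neither. The tetraspanin gene Tspan8 was at 115166 and 25369 and was higher in the EGFP library. The list summed to 13630 CPM in the EGFP and 14040 in the Tomato library, and in the EGFP library most of that sum was Tspan8 and Gcnt3, with 115166 and 41814 of 185739 normalized counts.

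Mucous neck cell markers were lower for 3 of the 4 genes measured of 5, beside 22.4% of all genes tested. Their median log2(EGFP/Tomato) was -2.65. Muc6, the gel-forming mucin of these cells, was at 42 in the EGFP and 198 in the Tomato library, and A4gnt, which caps the sugar chains of that mucin, was at 16 and 311. Dmbt1, a secreted mucosal defence protein, was at 54 and 465, and Glipr1 was at 390 and 102 and was called neither. Tff2 and Gkn3, both known from neck cells, stood at the outer ends of the range of fold changes of the members above 0 in both libraries.

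Chief cell markers were lower for 5 of the 6 genes measured of 7, beside 22.4% of all genes tested. Mia was the 1 that was higher. Pgc, the precursor of a pepsin, was at 39704 in the EGFP and 992416 in the Tomato library, and Chia1, an acidic chitinase, was at 189673 and 2055085. Gif, which encodes the vitamin B12 carrier intrinsic factor, was at 6994 and 89704, and Pga5, another pepsinogen gene, was at 250 and 1429. Of 5 parietal cell markers measured of 7, none was called lower and 2 were higher, with a median log2(EGFP/Tomato) of -1.22. The proton pump genes Atp4a, at 2102 and 4906, and Atp4b, at 2953 and 11629, were called neither, as was the potassium channel subunit gene Kcne2 at 69 and 272. Atp4b and Kcne2, with a log2(EGFP/Tomato) of -1.98 and -1.96, were just short of a call of lower. Hgfac was at 2308 and 303.

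**Figure D4:**
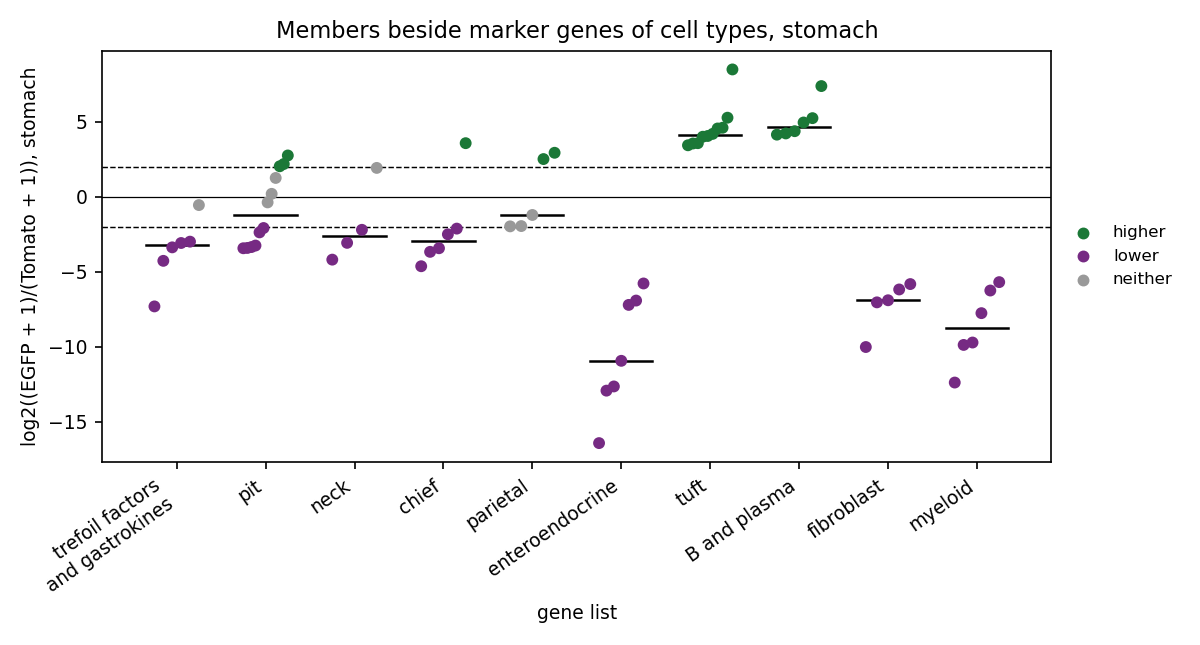
The log2 of the EGFP over the Tomato value of the stomach, each with 1 added, for the 6 members and for the measured genes of 9 lists of cell type markers. Bars are medians and dashed lines mark 4-fold; the members have a median of -3.23, beside -2.65 for the neck, -2.97 for the chief and 4.12 for the tuft list.

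Among measured genes that share a protein domain with the 6 members, none was called lower in the stomach, beside 22.4% of all genes tested. With so few genes measured, a count of none is not far from that share. Of 4 genes for other proteins with trefoil domains, 2 were measured in the stomach. Zp1, an egg coat protein gene, was at 92 in the EGFP and 0 in the Tomato library, and Gaa, which encodes a lysosomal glucosidase, was at 327 and 758 and was called neither. The 3 measured genes for BRICHOS proteins outside the family were all called neither, with a median log2(EGFP/Tomato) of -0.44. The membrane protein gene Itm2b was at 15888 and 21507, Itm2a at 315 and 486 and Itm2c at 581 and 752. In the trachea Gaa was called neither, and of 4 measured genes of the BRICHOS list 1 was higher, 2 were lower and 1 was neither. Of all genes tested there, 32.4% were lower.

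Mucins and their partners were lower for 4 of the 7 genes measured of 16 in the stomach, beside 22.4% of all genes tested. The median was -2.21, and 1 was higher. Muc5ac, the gel-forming mucin of pit cells with which Tff1 is released, was at 697 in the EGFP and 7567 in the Tomato library, a log2(EGFP/Tomato) of -3.44 beside -3.38 for Tff1. Agr2, which encodes a disulfide isomerase needed for mucin folding, was at 932 and 12663. Muc13, a mucin of the cell membrane, was at 1168 and 35 and was higher. In the trachea 8 of 11 measured genes of this list were lower, beside 32.4% of all genes tested there. None was higher, and the median was -4.86.

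Of 7 listed genes for receptors linked to trefoil factors, 5 were measured in the stomach. All 5 were lower, beside 22.4% of all genes tested. Levels were low and summed to 4.916 CPM in the EGFP and 58.38 in the Tomato library. Ackr3, an atypical chemokine receptor, was at 0 and 137, and Egfr, the receptor of epidermal growth factor, was at 1 and 258. The prostaglandin receptor gene Ptger4 was at 2 and 55, and F2rl1, a receptor activated by proteases, was at 18 and 194. In the trachea 2 of the list were measured, Ackr3 at 0 and 1748 and Egfr at 0 and 4085. Both were lower, beside 32.4% of all genes tested there, and 2 genes are too few to set against that share.

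Transcription factors of gastric and mucous cells were mostly called neither, with 13 of the 17 measured of 20 in that class, 4 lower and none higher, and a median log2(EGFP/Tomato) of -0.22. Foxa2, a forkhead factor of endoderm, was at 9 in the EGFP and 134 in the Tomato library. Foxq1, a forkhead factor linked to Muc5ac in pit cells, was at 184 and 1772. Gata4, a factor of endoderm, was at 100 and 727, and Bhlha15, a factor of secretory cells, was at 73 and 324. The 4 lower genes are 23.5% of those measured, near the 22.4% of all genes. In the trachea 10 genes of the list were measured, of which 4 were higher, 1 was lower and 5 were neither. Over all genes tested there, 2651 of 10523 were higher and 3411 were lower.

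Other secreted and surface products of the gastric mucosa were lower for 10 of the 12 genes measured of 15, with a median of -3.56. None was higher, and of all genes tested 22.4% were lower. This list shares genes with the pit, chief and enteroendocrine lists. Gast, the gastrin gene, was at 15 in the EGFP and 31644 in the Tomato library, and Sst, the somatostatin gene, was at 718 and 39647. The 2 genes called neither were Cldn18, a tight junction gene at 95215 and 47299, and Anxa10, an annexin gene at 11764 and 13894. Of 6 measured genes of this list in the trachea, 4 were lower, 1 was higher and 1 was neither. Of all genes tested there, 32.4% were lower.

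In the trachea, Tff2 was the 1 member of 6 at 50 or more, and it was called lower. It was at 369 in the EGFP and 2769 in the Tomato library, 7.5-fold lower (6.57 to 8.62), with a log2(EGFP/Tomato) of -2.9. Over all genes tested there, 3411 of 10523 were lower, which is 32.4%, and 2651 were higher, with a median of -0.318. That balance turned with all libraries at the same total, where 2943 were lower and 3227 higher, while Tff2 was still called lower, with a log2(EGFP/Tomato) of -2.33. The fold of Tff2 rests on an estimated 229 reads in the EGFP library, the shallowest of the 4. Club cell markers, lower for all 7, summed to 6717 CPM in the EGFP and 99110 in the Tomato library of the trachea, and markers of airway goblet cells and glands, lower for all 5, summed to 307.4 and 6922. Basal cell markers were lower for all 4 measured, and tuft cell markers were higher for 8 of 9. The part of those cells in the Tff2 values was not tested.

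The other 5 genes were at or near the limit of detection in the trachea. Tff1 was at 0 in the EGFP and 8 in the Tomato library, which is at least 1.66-fold lower against the limit of 3 reads. By the exact interval its ratio was up to 0.888. Gkn1, at 10 and 2, had a ratio of 5.0 (1.07 to 60.5), and Gkn2, at 5 and 1, had the same ratio with wider limits (0.479 to 313). These are an estimated 6 reads of Gkn1 and 3 of Gkn2 in the EGFP library.

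The fold of Tff2 was larger in the stomach than in the trachea. Without the added count, its log2(EGFP/Tomato) was -4.28 in the stomach and -2.91 in the trachea, a difference of -1.37 (stomach minus trachea, interval -1.58 to -1.17). The interval covers the counting of reads, and the difference was not tested against a spread between mice. When all libraries were set to the same total, log2(EGFP/Tomato) shifted by 0.18 in the stomach and 0.58 in the trachea, so this scaling widens the gap between the tissues.

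Between the Tomato libraries, all 6 genes were higher in the stomach than in the trachea, beside 27.9% of all genes tested (3167 of 11338). The median log2(stomach/trachea) was 10.1 over the members and 0.11 over all genes. Tff2 had the smallest ratio, 9.45-fold (9.13 to 9.8). Tff1 was 3870-fold higher in the stomach (2080 to 7970), and Tff3 and Gkn3 were at least 65.5-fold and 144-fold higher. The lower interval limits for Tff3 and Gkn3 were 52.8 and 117. The ratios of Gkn1, 234000 (80100 to 2390000), and of Gkn2, 376000 (83300 to 18300000), rest on 2 reads and 1 read in the trachea, so their intervals are wide.

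Between the EGFP libraries, 4 of the 5 members at 50 or more were higher in the stomach, beside 28.3% of all genes tested (2923 of 10337). Tff2 was called neither, at 1346 in the stomach and 369 in the trachea, 3.65-fold (3.18 to 4.21). Gkn1 was 5510-fold higher in the stomach (2620 to 15600) and Gkn2 was 9420-fold higher (3340 to 47300). Tff1 was at least 614-fold and Gkn3 at least 48.9-fold higher, with lower interval limits of 499 and 39.5. Tff3 was listed at 0 in both EGFP libraries. The comparisons of sorts and of tissues share their libraries and are not independent of each other.

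For each gene, the 3 most similar profiles were taken among 13023 genes at 50 or more in any library, by the Euclidean distance of log2 values over the 4 libraries, each centred on its own mean. With 4 points a likeness is a description. Both Gkn1 and Gkn2 were closest to the same 3 genes, Clps, Pla2g1b and Pgc, at distances of 1.08, 1.1 and 1.14 from Gkn1 and of 1.31, 1.1 and 1.19 from Gkn2. Clps encodes colipase, Pla2g1b a secreted phospholipase and Pgc a pepsinogen. Their log2(EGFP/Tomato) in the stomach was -4.54, -4.54 and -4.64, lower than those of the gastrokines. Clps was at 25205 in the EGFP and 587477 in the Tomato library of the stomach, and Pla2g1b was at 37761 and 877181. In the trachea, Clps and Pla2g1b were each at 8 in the EGFP and 2 in the Tomato library, and Pgc was at 10 and 2. The likeness to the gastrokines thus rests in part on a few tracheal reads.

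Tff1 was closest to the chitinase gene Chia1 (distance 1.6), to Muc5ac (1.82) and to Nqo1, a quinone reductase gene (1.84). Nqo1 was at 1227 and 11811 in the EGFP and Tomato libraries of the stomach and at 0 and 15 in those of the trachea. Tff2 was closest to Padi2 (0.22), Mark4 (0.41) and Pydc4 (0.45), which were at 82 normalized counts or fewer in every library, so that this likeness rests on a few reads in 3 of them. The profiles closest to Tff3, those of Gypc (0.0), Abtb2 (0.01) and Gnao1 (0.02), had values of 158 to 161 in the Tomato library of the stomach and 0 in the others. Gkn3 was closest to the adenylate kinase gene Ak4 (0.23), at 194 and 320 in the stomach, to Gm43061 (0.28) and to Lmcd1 (0.29), all listed at 0 in the trachea.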

How the data were processed

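RNA was sequenced from sorted cells of 4 groups, 1 library each. Reads had been mapped by the authors with STAR 2.4.0a to GRCm38, the mouse genome, and exon reads were counted for each gene with featureCounts 1.4.5-p1. Reads on more than 1 gene or with more than 1 alignment had been excluded. The signal deposited by the authors is a normalized count, a read count that was scaled by 1 factor per library and then rounded. The origin of these factors is not stated in the sources used. Because the factors set every ratio between libraries, other scalings were tried. Of these, factors from the median ratio over genes were nearly equal for the deposited values, from 1.0402 to 1.0461. That scaling could therefore change little and is no separate check.

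Of 48709 genes listed, 116 symbols stood on more than 1 line, of which the line with the largest total was kept. The worth of 1 read was estimated in each library from the whole numbers from 3 to 60 that occur, and dividing by it gave estimated reads. With 1 library per group, differences were described as log2 ratios with a pseudocount of 1, called from 4-fold on at 50 or more normalized counts, and no model was fitted across genes. Intervals are exact binomial intervals (95%), which cover the counting error of reads only. The scripts were tested on simulated data. Python 3.11.15, numpy 2.4.6, pandas 2.3.3, scipy 1.17.1 and matplotlib 3.10.9 were used.

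Members and gene lists were chosen with earlier results of these data known. Genes named beside the 6 members are the 3 nearest profiles of each, up to 4 genes of each list by the largest change (pathway lists) or the highest level in the Tomato library of the stomach (marker lists), and markers for the check of tissue and sort. Mia, Lipf, Cldn18 and Anxa10 were named after their values were seen. Exon lengths and positions came from GENCODE, and promoters from RefSeq. EGFP, CreERT2 and Tomato transcripts were not analysed here.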

Additional observations from a re-analysis of the deposited data

Results flagged for a closer look

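Foxq1, a forkhead factor on the list of transcription factors, was lower in the EGFP library of the stomach, with 184 against 1772 normalized counts and a log2(EGFP/Tomato) of -3.26, and higher in that of the trachea, with 159 against 0 and a value of 7.32. The directions were opposite in the 2 tissues. The difference was not tested, since each tissue had 1 library per sort, and the tracheal value depends on the count added to the 0.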

How the results depend on the processing

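Over 10 alternatives of pseudocount, minimum level, scaling and fold, 4 or 5 of the 6 members were called lower in the EGFP library of the stomach. In the trachea, 2 members were lower with no minimum level, which adds Tff1, and 0 at 8-fold. Between Tomato libraries 4 to 6 members were higher in the stomach, and between EGFP libraries 3 to 5. Gkn3 kept a log2(EGFP/Tomato) between -0.73 and -0.19 and Gkn1 between -3.25 and -2.72; Tff3 was at -4.08 with a pseudocount of 10. Without a minimum level, genes lower in the stomach EGFP library numbered 4234, and 605 at a minimum of 500, and higher ones 2736 and 663; 2882 were higher at 2-fold and 1029 at 8-fold. In the trachea 1459 were lower and 1162 higher at 500. The balance of tracheal calls, 3411 lower and 2651 higher, turned to 2943 and 3227 with the same total, to 2901 and 3231 without immunoglobulin genes and to 2956 and 3056 without the 10 highest genes. Between Tomato libraries 5393 genes were higher in the stomach without a minimum and 769 at 500, with 1149 lower at 500 and 3514 at 2-fold. Between EGFP libraries the counts were 5130 and 917, and 844 and 3181. The shifts with the minimum level and the fold follow from the number of genes that each threshold admits.

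Scaling to the same total moved log2(EGFP/Tomato) of all genes by 0.18 in the stomach and 0.58 in the trachea, and log2(stomach/trachea) by -0.05 between Tomato and -0.45 between EGFP libraries. Leaving immunoglobulin genes out of the total put the members at 0.8994% of the EGFP and 5.875% of the Tomato library of the stomach, and leaving out the 10 highest genes put them at 0.9941% and 8.653%, and at 0.02217% of the Tomato library of the trachea. Without length correction, log2 of Gkn2 over Gkn1 turned from 0.44 to -0.23 in the EGFP and from 0.35 to -0.32 in the Tomato library of the stomach. For Tff2 over Tff1 it moved from -0.87 to -1.14 in the EGFP library and turned from 0.03 to -0.24 in the Tomato library. With the RefSeq length of Tff1, a setting chosen after the data were seen, it was -1.4 and -0.51.

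No paired analysis was possible because each group had 1 library, and for the same reason none was left out. Tracheal values of the members other than Tff2 were at 10 normalized counts or fewer, so their ratios between the tracheal sorts rest on a few reads.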
